A study of Mus musculus with 23 samples.

Results

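Expression levels of 9 genes of dopamine synthesis, transport, reception, and signaling were examined in the mouse brain: Th, Ddc, Slc6a3, Slc18a2, Drd1a, Drd2, Drd4, Ppp1r1b, and Adora2a. They were chosen by name among the 31829 gene names on the array. All 9 were found, with 11 of the 39429 probes tested. Ddc and Slc18a2 had 2 probes each, and each of the other genes had 1. All 11 probes were well above the local background on all 12 arrays.

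In vitro fertilized embryos were carried by ICR recipient mothers on the control diet (CD), the protein-restricted diet (PR), or the folic acid-supplemented PR diet (FA), fed from 1 month before the transfer until delivery. Casein made up 20% of the CD and 5% of the other diets, and folic acid 0.02% of the CD and PR diets and 0.1% of the FA diet. The progenies were adult C57BL/6J males that ate the CD after weaning, went through behavioral tests, and were 19 weeks old when the whole brain, cerebrum and cerebellum, was taken. ICR foster mothers nursed them until weaning, and the study gives the diet of these mothers in different ways, so the diets are not known to have differed only before birth. There were 4 mice in each group and 1 array per mouse.

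Between 27068 and 28458 spots were well above background on the CD arrays, 31266 to 33478 on the PR arrays, and 30408 to 31672 on the FA arrays. The 4 arrays of a diet shared 1 slide and 1 scan, so the effects of slide and diet cannot be told apart. Levels are log2 values of normalized intensity, with a median between 7.14 and 7.15 on every array. They allow a probe to be compared between brains but not with another probe.

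Tyrosine hydroxylase, the product of Th, turns tyrosine into L-DOPA, and the decarboxylase made from Ddc turns L-DOPA into dopamine. The vesicular transporter Slc18a2 fills synaptic vesicles with the transmitter, and the plasma membrane transporter Slc6a3 takes it back into the midbrain neurons that release it. In the striatum, dopamine acts on neurons with the receptor Drd1a or Drd2, whose opposite effects on cyclic AMP meet at the phosphatase inhibitor Ppp1r1b, and the adenosine receptor Adora2a marks the neurons that carry Drd2.

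The PR diet was compared with the CD to ask what protein restriction of the mother changed. Ppp1r1b was the only one of the 9 genes with a changed expression level in limma at an adjusted p under 0.05, and it was higher in the PR group. That is 1 of 11 probes (9.09%), against 30.0% of all 39429 probes. None of the 11 probes was called lower, against 16.6% of all probes, and 1 was called higher, against 13.4%. At an unadjusted p under 0.05, 2 of the 11 probes differed by limma, against 16220 of all 39429, and Tukey's comparison with the same adjustment called 0, against 8354. The values of the PR and CD mice did not overlap for 4 of the 11 probes (36.4%), against 33.2% of all probes. The dopamine probes thus stood near or below the share of all probes. Their median log2 fold change was -0.11, and that of all probes was -0.02.

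The FA diet was set against the CD in the same fit, with the same 4 CD arrays. Ppp1r1b was again the only gene called, and its levels were higher in the FA brains. That is 1 of 11 probes (9.09%), against 34.4% of all probes. The count of probes called lower was 0, against 18.0% of all probes, and the count called higher was 1, against 16.4%. At an unadjusted p under 0.05, 2 of the 11 probes differed by limma, against 17502 of all 39429, and Tukey's comparison called 1, against 10037. The groups did not overlap for 1 of the 11 probes, against 36.9% of all probes. The median log2 fold change was -0.03 over the dopamine probes and -0.01 over all probes.

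The comparison of FA with PR asked what the added folic acid changed. Limma called 0 of the 11 probes, against 0.614% of all probes in either direction, 0.386% lower, and 0.228% higher. The share of all probes rests on 242 calls, which were 34 without FA replicate 3 and 11 with the replicate number as a block. An unadjusted p under 0.05 was reached by 0 of the 11 probes, against 5572 of all 39429, and Tukey's comparison called 0 of them, against 8. The groups did not overlap for 1 of the 11 probes, Drd2, against 11.1% of all probes. The median log2 fold change was 0.03 over the dopamine probes and 0.02 over all probes. By the stricter limits of the study's methods, at least a 2-fold change at an adjusted p under 0.0001, limma called 0 of the 11 probes in all 3 comparisons. The share of all probes past these limits was 0.0862% between PR and CD, 0.195% between FA and CD, and 0% between FA and PR. The higher calls made up 44.7% of all calls between PR and CD and 47.6% between FA and CD, but 56.2% and 56.4% after a normexp background correction and quantile normalization, and 55.5% and 56.4% with dim probes left out. For FA against PR they made up 37.2%, but 16.9% with scaling to the 75th percentile, 77.1% without FA replicates 2 and 3, and 6 of the 8 calls by Tukey's comparison.

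**Figure D1:**
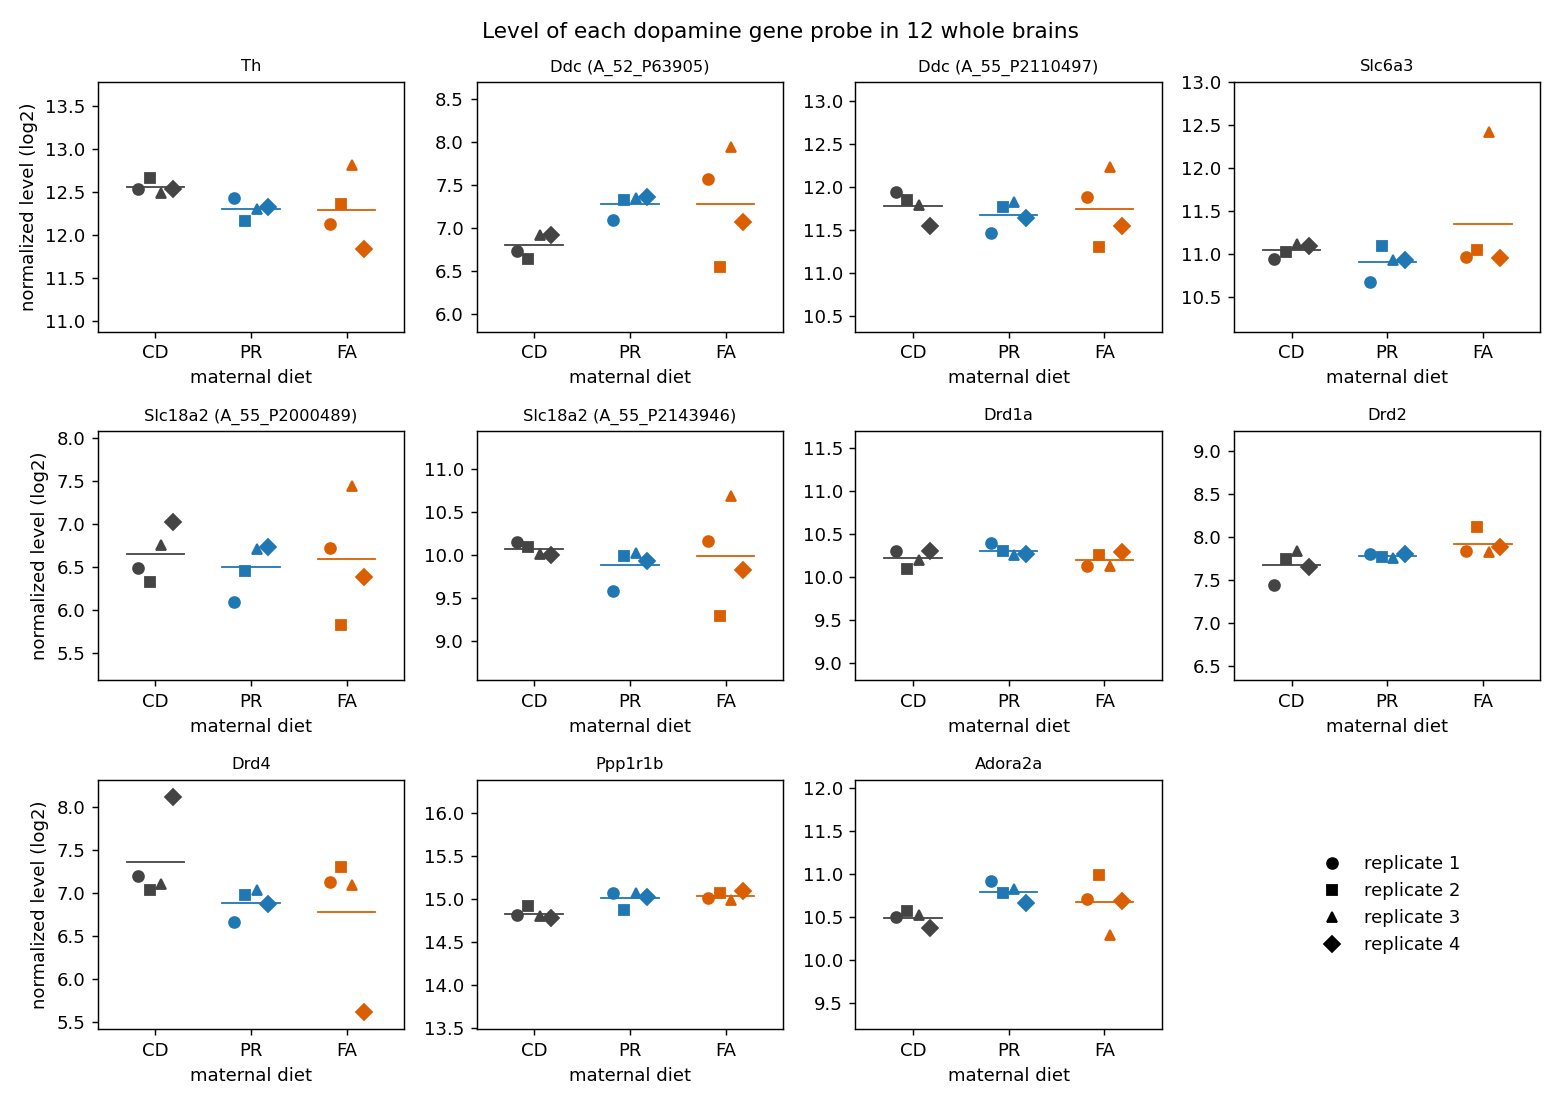
Each panel shows 1 probe, with the normalized level on a log2 axis, the 3 maternal diets on the horizontal axis, 1 point per mouse with the replicate number as its shape, and a line at the mean of the 4 mice, over the same height of axis. The Slc6a3 level of FA replicate 3 (12.42) and the Drd4 level of FA replicate 4 (5.61) lie far from the other mice of their group.

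Th, the gene of the rate-limiting enzyme of dopamine synthesis, was measured by a probe on chromosome 7 (mm9, chr7:150078703-150078762, minus strand). Its levels in CD replicates 1 to 4 were 12.53, 12.66, 12.49, and 12.53. In PR replicates 1 to 4 they were 12.43, 12.16, 12.30, and 12.32, and in FA replicates 1 to 4 they were 12.13, 12.36, 12.81, and 11.84. Every PR brain was below every CD brain, while the FA brains held both the highest and the lowest level of all 12. The difference between the PR and CD means was -0.25 (95% interval -0.62 to 0.12, limma adjusted p = 0.286), with 4 of 4 PR brains below the CD mean. The difference between FA and CD was -0.27 (-0.64 to 0.10, adjusted p = 0.249), with 3 of 4 FA brains below the CD mean. The means ran from CD (12.55 ± 0.08, SD, n = 4) through PR (12.30 ± 0.11) to FA (12.29 ± 0.41), and no neighbors in this order were told apart by limma. All 3 groups shared 1 estimate of the spread, and the FA brains made it large for Th. When only the PR and CD arrays were fitted, Th was called lower in the PR group (-0.25, adjusted p = 0.0359). Without FA replicate 3, Th was called lower in the FA group (-0.44, adjusted p = 0.0176), and without FA replicate 4 the difference was -0.12 (adjusted p = 0.562). In whole brains, fewer cells of a type and less RNA per cell cannot be told apart.

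Ddc, the decarboxylase that completes dopamine synthesis and also serves serotonin synthesis, was measured by 2 probes that lie 62.1 kb apart on chromosome 11. The probe A_55_P2110497 (chr11:11714106-11714165, minus strand) gave 11.94, 11.85, 11.79, and 11.54 in CD replicates 1 to 4. It gave 11.46, 11.77, 11.82, and 11.64 in the PR group and 11.88, 11.30, 12.23, and 11.54 in the FA group. The 3 groups overlapped, and FA replicates 2 and 3 had the lowest and the highest level of the 12 brains. The probe A_52_P63905 (chr11:11776262-11776321, minus strand) gave 6.73, 6.64, 6.91, and 6.91 in the CD group and 7.09, 7.32, 7.34, and 7.35 in the PR group. In FA replicates 1 to 4 it gave 7.57, 6.54, 7.94, and 7.07. With this probe every PR brain was above every CD brain, and FA replicates 2 and 3 again lay at the bottom and the top. The 2 probes disagreed on the difference between PR and CD, which was 0.48 for A_52_P63905 (-0.06 to 1.02, adjusted p = 0.168, 4 of 4 PR brains above the CD mean) and -0.11 for A_55_P2110497 (-0.51 to 0.29, adjusted p = 0.688, 3 of 4 below). Between FA and CD they were 0.48 (-0.06 to 1.02, adjusted p = 0.155, 3 of 4 above) and -0.04 (-0.45 to 0.36, adjusted p = 0.881, 2 of 4 below). A_52_P63905 was called higher in the PR group when only the PR and CD arrays were fitted (0.48, adjusted p = 0.00874), and higher in the FA group without FA replicate 2 (0.73, adjusted p = 0.0122). Without FA replicate 3 its difference between FA and CD was 0.26 (adjusted p = 0.367). With normexp it was 0.30 in PR (adjusted p = 0.139) and 0.33 in FA (adjusted p = 0.0935).

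Of the 8 genes listed for dopamine synthesis and its cofactor tetrahydrobiopterin, all were on the array, with 11 probes. Besides Th and Ddc, the list held Gch1, Gchfr, Pts, Spr, Qdpr, and Pcbd1. Its only gene with a changed level was Qdpr, which regenerates the cofactor. Qdpr rose by 0.33 (adjusted p = 0.0224) in the PR group with the probe A_55_P2080774, in 4 of 4 brains, and by 0.49 (adjusted p = 0.00285) in the FA group, in 4 of 4 brains. Its other probe was called in the FA group (0.26, adjusted p = 0.00692) and not in PR (0.15, adjusted p = 0.0853). The PR call of A_55_P2080774 was lost with scaling to the 75th percentile (0.27, adjusted p = 0.0516), with Tukey's comparison (0.0725), and without 4 of the 12 arrays, each left out alone. So 1 of the 11 probes was higher in the PR group, 2 were higher in the FA group, and 0 were lower in either, while Tukey's comparison called 0 in PR and 2 in FA. Of all probes 13.4% were higher and 16.6% lower in PR, and 16.4% and 18.0% in FA. The median log2 fold change of the list was -0.10 in PR and -0.03 in FA relative to the CD group and 0.07 in FA relative to PR. In the last comparison limma called 0 probes, 0 passed at an unadjusted p under 0.05, and Tukey's comparison called 0.

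Slc6a3, the dopamine transporter of the plasma membrane, was measured on chromosome 13 (chr13:73715973-73716032, plus strand). Its levels were 10.95, 11.03, 11.12, and 11.10 in CD replicates 1 to 4 and 10.68, 11.10, 10.93, and 10.93 in PR replicates 1 to 4. In FA replicates 1 to 4 they were 10.97, 11.05, 12.42, and 10.96. FA replicate 3 stood alone above all other brains, and the remaining 11 brains overlapped between the diets. The FA mean (11.35 ± 0.71, SD, n = 4) was above the CD mean (11.05 ± 0.08) and the PR mean (10.91 ± 0.17). The difference between FA and CD was 0.30 (-0.33 to 0.92, adjusted p = 0.447), with 2 of 4 FA brains above the CD mean, and without FA replicate 3 it was -0.06. The FA and PR means differed by 0.44 (-0.19 to 1.06, adjusted p = 0.543), and by 0.08 without FA replicate 3 (adjusted p = 0.775). The difference was -0.14 between the PR and CD means (-0.76 to 0.48, adjusted p = 0.739). No neighbors in this order were told apart by limma.

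Slc18a2, which loads dopamine, noradrenaline, serotonin, and histamine into vesicles, was measured by 2 probes on chromosome 19 that overlap by 13 bases. The probe A_55_P2143946 (chr19:59370106-59370165, plus strand) gave 10.16, 10.10, 10.02, and 10.00 in the CD group. It gave 9.58, 9.99, 10.03, and 9.93 in the PR group and 10.17, 9.30, 10.69, and 9.83 in the FA group. The CD brains lay close together, while FA replicate 2 was the lowest and FA replicate 3 the highest of the 12 brains. The probe A_55_P2000489 (chr19:59370153-59370212, plus strand) gave 6.49, 6.33, 6.75, and 7.02 in the CD group and 6.09, 6.45, 6.71, and 6.73 in the PR group. In the FA group it gave 6.72, 5.82, 7.44, and 6.38. FA replicates 2 and 3 again had the lowest and the highest level. The difference between PR and CD was -0.19 (-0.72 to 0.34, adjusted p = 0.581, 4 of 4 PR brains below the CD mean) for A_55_P2143946 and -0.15 (-0.83 to 0.52, adjusted p = 0.736, 2 of 4 below) for A_55_P2000489. Between FA and CD they were -0.07 (-0.60 to 0.46, adjusted p = 0.841) and -0.06 (-0.73 to 0.62, adjusted p = 0.903), each with 2 of 4 FA brains below the CD mean. For A_55_P2000489 the difference between PR and CD was -0.02 without PR replicate 1 and -0.03 without CD replicate 4.

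For transport and breakdown, 6 genes were measured, with 7 probes. Beside the transporters these were the monoamine oxidases Maoa and Maob and the aldehyde dehydrogenases Aldh1a1 and Aldh2. Maoa fell by 0.28 in the PR group (adjusted p = 0.0104, 4 of 4 brains), and Aldh2 rose by 0.19 (adjusted p = 0.0329, 4 of 4 brains). So 1 of the 7 probes was lower and 1 higher in the PR group, against 16.6% and 13.4% of all probes, and Tukey's comparison called 1. The call of Aldh2 was lost with Tukey's comparison (0.0728), with the replicate block (0.0676), without FA replicates 2 and 3 (0.0508), and without 5 of the 12 arrays, each left out alone. Limma called 0 of the 7 probes between FA and CD and 0 between FA and PR, with 2 and 1 at an unadjusted p under 0.05 and 0 and 0 by Tukey's comparison. The median log2 fold change was -0.14 for PR vs CD, -0.04 for FA vs CD, and 0.09 for FA vs PR. For PR vs CD and FA vs PR it was -0.05 and 0.02 with scaling to the 75th percentile, and -0.08 and 0.04 with normexp.

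Drd1a, the receptor of the direct-pathway striatal neurons and now named Drd1, was measured on chromosome 13 (chr13:54147277-54147336, minus strand). Its levels were 10.31, 10.10, 10.20, and 10.31 in the CD brains, 10.40, 10.30, 10.26, and 10.27 in the PR brains, and 10.13, 10.26, 10.13, and 10.29 in the FA brains. The 3 groups overlapped. The difference was 0.08 between PR and CD (-0.06 to 0.21, adjusted p = 0.377) and -0.03 between FA and CD (-0.16 to 0.11, adjusted p = 0.773). Between FA and PR it was -0.10 (-0.24 to 0.03, adjusted p = 0.503).

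Drd2, the receptor of the indirect-pathway neurons and the autoreceptor of dopamine neurons, was measured on chromosome 9 (chr9:49215047-49215106, plus strand). Its levels were 7.44, 7.74, 7.84, and 7.65 in the CD mice, 7.80, 7.77, 7.76, and 7.80 in the PR mice, and 7.84, 8.12, 7.82, and 7.88 in the FA mice. The 4 PR brains lay within 0.04 of each other, and every FA brain was above every PR brain. CD replicate 3 overlapped with the FA group. The means ran from CD (7.67 ± 0.17, SD, n = 4) through PR (7.78 ± 0.02) to FA (7.91 ± 0.14). The difference between FA and CD was 0.25 (0.05 to 0.44, adjusted p = 0.0550), with 4 of 4 FA brains above the CD mean, and missed the limit. It passed when dim probes were left out of the table (0.25, adjusted p = 0.0456) and without CD replicate 3 (0.30, adjusted p = 0.0289). Over the other alternatives that kept all arrays, the adjusted p ranged from 0.0512 to 0.202, the last with normexp, where the difference was 0.12. It was 0.17 without CD replicate 1 (adjusted p = 0.126) and 0.18 without FA replicate 2 (adjusted p = 0.130). The difference was 0.11 between PR and CD (-0.08 to 0.31, adjusted p = 0.360) and 0.13 between FA and PR (-0.07 to 0.33, adjusted p = 0.570).

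Drd4, a receptor of the Drd2 class found in cortex and retina, was measured on chromosome 7, 1.60 Mb from the probe for Th (chr7:148480683-148480742, plus strand). Its levels were 7.20, 7.04, 7.10, and 8.12 for CD, 6.66, 6.98, 7.03, and 6.87 for PR, and 7.13, 7.30, 7.09, and 5.61 for FA. CD replicate 4 was far above and FA replicate 4 far below the other mice, and every PR brain was below every CD brain. The difference was -0.48 between PR and CD (-1.29 to 0.32, adjusted p = 0.342, 4 of 4 PR brains below the CD mean). It was -0.59 between FA and CD (-1.39 to 0.22, adjusted p = 0.241) and -0.10 between FA and PR (-0.91 to 0.70, adjusted p = 0.939). Single mice moved these values: without CD replicate 4 the difference was -0.23 between PR and CD (adjusted p = 0.645) and -0.34 between FA and CD (adjusted p = 0.492), and without FA replicate 4 the latter was -0.20 (adjusted p = 0.567). With normexp they were -0.33 (adjusted p = 0.203) and -0.35 (adjusted p = 0.159). The intervals allow a change of more than 2-fold in the PR and FA groups.

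The receptors outside the chosen genes are Drd3 and Drd5. Drd3 was well above background on 11 of the 12 arrays, with levels from 5.49 to 6.30 in CD, 5.67 to 6.11 in PR, and 5.89 to 6.02 in FA. Drd5 ranged from 7.58 to 7.72, from 7.44 to 7.80, and from 7.58 to 7.89 in the same order. For both genes the 3 groups overlapped. Limma called 0 of the 5 receptor probes in each of the 3 comparisons, Tukey's comparison also called 0, and at an unadjusted p under 0.05 there were 0, 1, and 0 for PR vs CD, FA vs CD, and FA vs PR. Their median log2 fold change was 0.07 for PR vs CD, 0.09 for FA vs CD, and 0.02 for FA vs PR, the last -0.09 with scaling to the 75th percentile and -0.01 with normexp.

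Ppp1r1b, the dopamine- and cyclic AMP-regulated inhibitor of protein phosphatase in striatal neurons, was measured on chromosome 11 (chr11:98218965-98219024, plus strand). Its levels were 14.81, 14.91, 14.80, and 14.77 in CD replicates 1 to 4. They were 15.06, 14.87, 15.06, and 15.02 in PR replicates 1 to 4 and 15.01, 15.06, 14.98, and 15.09 in FA replicates 1 to 4. Every FA brain was above every CD brain, and of the PR brains only replicate 2 fell within the CD range. The expression level rose by 0.18 in the PR group (1.13-fold, 95% interval 0.06 to 0.30, limma adjusted p = 0.0309) and by 0.21 in the FA group (1.16-fold, 0.09 to 0.33, adjusted p = 0.0120), with 4 of 4 brains above the CD mean in each. These comparisons share the CD arrays. The means were 14.82 ± 0.06 (SD, n = 4) in CD, 15.00 ± 0.09 in PR, and 15.03 ± 0.05 in FA, and PR and FA differed by 0.03 (-0.08 to 0.15, adjusted p = 0.832).

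Both calls depended on the scaling. With each array scaled to the 75th percentile of its signal, Ppp1r1b differed by 0.04 between PR and CD (adjusted p = 0.654) and by 0.09 between FA and CD (adjusted p = 0.249), and neither was called. With outlier spots left out as well, they were 0.04 (0.621) and 0.10 (0.235). Over the other alternatives that kept all arrays, the adjusted p between PR and CD ranged from 0.0122 to 0.0754. The call was lost with the replicate number as a block (0.0754), with Tukey's comparison (0.0604), with only the PR and CD arrays in the fit (0.0652), and without FA replicates 2 and 3 (0.0514), while the difference stayed at 0.18. It was also lost, with a difference of 0.16 to 0.17, without any 1 of CD replicates 1, 3, and 4 (0.0655, 0.0694, and 0.0647) or PR replicates 1, 3, and 4 (0.0768, 0.0809, and 0.0703). Between FA and CD, the other alternatives kept the call, with an adjusted p of at most 0.0385, except that leaving out FA replicates 2 and 3 together, chosen after the values were seen, ended it (0.22, adjusted p = 0.0523).

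Adora2a, the adenosine receptor that opposes Drd2 in the same neurons, was measured on chromosome 10 (chr10:74797461-74797520, plus strand). Its levels were 10.50, 10.57, 10.52, and 10.37 in the CD brains, 10.91, 10.77, 10.82, and 10.66 in the PR brains, and 10.71, 10.99, 10.29, and 10.68 in the FA brains. Every PR brain was above every CD brain, and 3 of the FA brains were as well, while FA replicate 3 was the lowest of all 12. The difference between PR and CD was 0.30 (0.02 to 0.57, adjusted p = 0.0949), with 4 of 4 PR brains above the CD mean. Between FA and CD it was 0.18 (-0.10 to 0.45, adjusted p = 0.305), with 3 of 4 FA brains above. Without FA replicate 3, Adora2a was called higher both in PR (0.30, adjusted p = 0.0240) and in FA (0.30, adjusted p = 0.0318), while without FA replicate 2 the FA difference was 0.07 (adjusted p = 0.661). It was also called higher in PR without FA replicate 2 (0.30, adjusted p = 0.0465) and with only the PR and CD arrays in the fit (0.30, adjusted p = 0.0187).

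**Figure D2:**
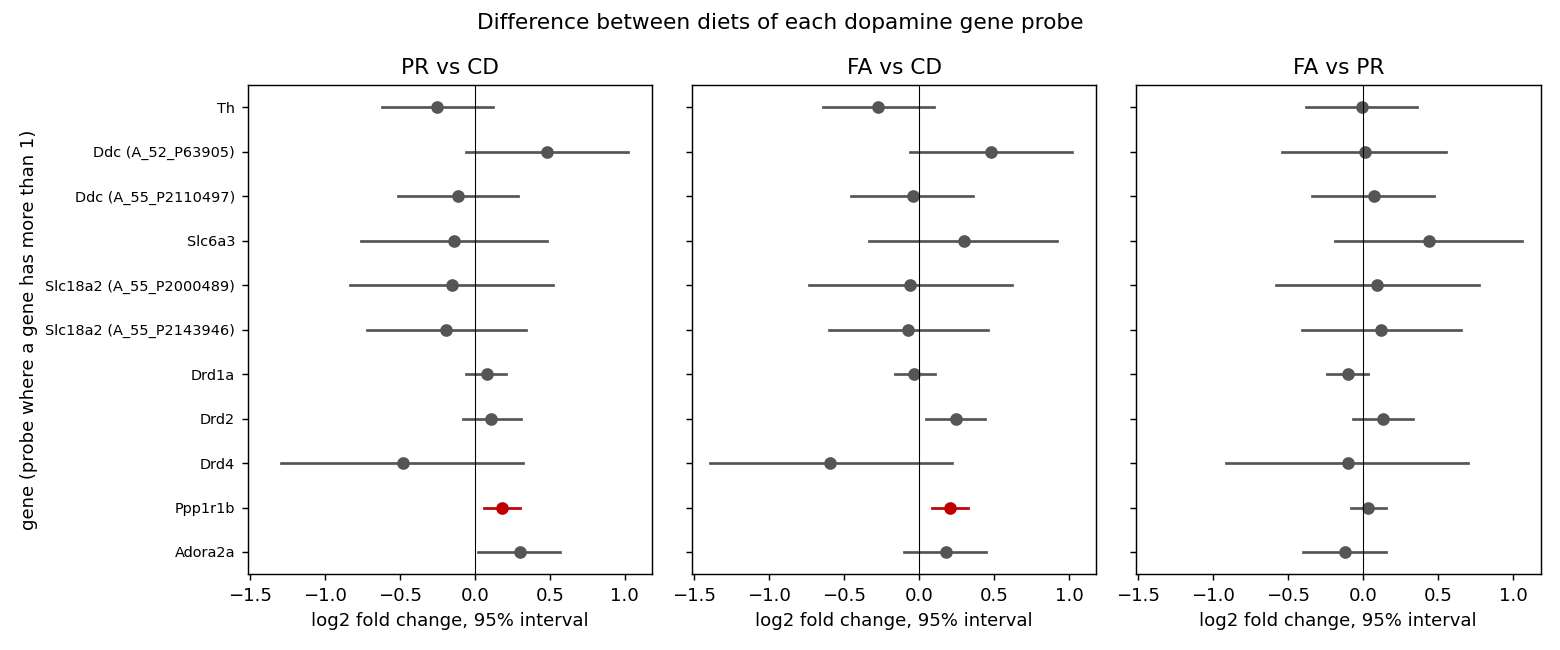
Points show the log2 fold change of each of the 11 probes in the 3 comparisons of diets, bars show the 95% interval from limma, and red marks an adjusted p under 0.05. The 2 red probes are Ppp1r1b between PR and CD (0.18) and between FA and CD (0.21), and the widest intervals belong to Drd4.

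Ppp1r1b and Adora2a were 2 of the 13 genes listed for striatal signaling downstream of dopamine, all of them on the array with 24 probes. In the PR group 8 of the 24 probes were higher and 1 was lower, and in the FA group 6 were higher and 1 was lower, while Tukey's comparison called 5 and 7. The higher probes include that of Ppp1r1b in each group. Without Ppp1r1b and Adora2a, 7 of 22 probes were higher and 1 lower in PR, and 5 and 1 in FA. Of all 39429 probes 13.4% were higher and 16.6% lower in PR, and 16.4% and 18.0% in FA. The list is brighter than the array, with 22 of its 24 probes well above background on all 12 arrays. With dim probes left out, its counts were 8 higher and 1 lower in PR, against 4708 and 3775 of 27489 probes. In FA they were 7 and 1, against 5870 and 4545. The median log2 fold change of the list was 0.13 in PR and 0.11 in FA, against -0.02 and -0.01 over all probes, and 0.00 in FA relative to PR, where limma and Tukey's comparison called 0 probes and 5 passed at an unadjusted p under 0.05. With scaling to the 75th percentile, with or without outlier spots, 5 probes were higher and 2 lower in PR (median 0.12) and 5 and 0 in FA (0.08). After quantile normalization the counts were 8 and 1 (0.14) and 6 and 1 (0.12), and after normexp 6 and 1 (0.12) and 6 and 0 (0.12). Without FA replicates 2 and 3 they were 8 and 2 in PR (0.13) and 3 and 1 in FA (0.12). Among the larger changes in PR were those of Arpp21 (0.38, adjusted p = 0.0383), Gnal (0.30, adjusted p = 0.00762), and Ptpn5 (0.29, adjusted p = 0.0237), each higher in 4 of 4 brains. In FA they included those of Rgs9 (0.36, adjusted p = 0.000445), Ptpn5 (0.35, adjusted p = 0.00796), and Adcy5 (0.20, adjusted p = 0.0122), each higher in 4 of 4 brains. In PR the call of Arpp21 was lost with normexp (0.23, adjusted p = 0.0881), with only the PR and CD arrays (0.0696), with Tukey's comparison (0.124), and without 7 of the 12 arrays, each left out alone. That of Ptpn5 was lost there with the 75th percentile (0.18, adjusted p = 0.119), with only the PR and CD arrays (0.0544), with Tukey's comparison (0.0718), and without 1 of the 12 arrays. In FA those of Ptpn5 and Adcy5 were lost without FA replicates 2 and 3 (0.0574 and 0.0565). Other probes of some of these genes were not called. In PR they gave 0.08 and 0.15 for Arpp21 (adjusted p = 0.457 and 0.201) and -0.10 for Gnal (adjusted p = 0.210), and in FA 0.10 and -0.06 for Adcy5 (adjusted p = 0.246 and 0.490). The probe called lower in PR was 1 of 2 for Rasgrp2 (fell by 0.25, adjusted p = 0.0368), named after its value was seen, and the other had a difference of -0.04 (adjusted p = 0.733). The probe called lower in FA was another of Rgs9 that was not well above background on any CD array.

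Drd1a was 1 of 6 genes listed for direct-pathway neurons, measured by 7 probes. Limma and Tukey's comparison called 0 of them between PR and CD, where 1 passed at an unadjusted p under 0.05, and limma called 2 lower between FA and CD, Chrm4 (fell by 0.67, adjusted p = 0.0115, 4 of 4 brains) and Ebf1 (fell by 0.37, adjusted p = 0.00324, 4 of 4 brains). With normexp Chrm4 differed by -0.20 between FA and CD (adjusted p = 0.0274). Drd2 and Adora2a were among 6 genes listed for indirect-pathway neurons, also measured by 7 probes. There 2 probes were higher in PR, Gpr6 (0.25, adjusted p = 0.00225) and Penk (0.19, adjusted p = 0.0489), and the same 2 in FA, Penk (0.18, adjusted p = 0.0497) and Gpr6 (0.13, adjusted p = 0.0386), each in 4 of 4 brains. Penk was at 0.03 in PR and 0.05 in FA with scaling to the 75th percentile (adjusted p = 0.728 and 0.537), and was not called after quantile normalization (0.0599 and 0.0580), with Tukey's comparison (0.114 in both), with only the 2 groups fitted (0.0814 and 0.0840), without FA replicates 2 and 3 (0.0778 and 0.112), or without 9 and 11 of the 12 arrays, each left out alone. The FA call of Gpr6 was lost with normexp (0.05, adjusted p = 0.293), with the replicate block (0.0631), with only the 2 groups fitted (0.0759), and without 6 of the 12 arrays. The medians of the indirect-pathway list were 0.11 and 0.13, and those of the direct-pathway list -0.04 and -0.03, the latter 2 both 0.03 with normexp. The FA median of the indirect-pathway list was 0.05 both with scaling to the 75th percentile and with normexp. Of 10 probes for 5 striatal transcription factors, 1 for Rarb was higher in PR (0.41, adjusted p = 0.000105) and in FA (0.36, adjusted p = 0.000161), and 1 for Zfp503 was lower in FA (fell by 0.32, adjusted p = 0.0239), each in 4 of 4 brains. The other probe for Rarb differed by -0.02 in PR (adjusted p = 0.873) and 0.05 in FA (adjusted p = 0.630), and the other for Zfp503 by -0.06 in FA (adjusted p = 0.668). The call of Zfp503 was lost with Tukey's comparison (0.0761), with only the 2 groups fitted (0.0603), without FA replicates 2 and 3 (-0.24, adjusted p = 0.0566), and without 2 of the 12 arrays, each left out alone. The medians of the transcription factors were -0.01 and -0.09. For these 3 lists the share over all 39429 probes was 13.4% higher and 16.6% lower in PR, and 16.4% higher and 18.0% lower in FA. Tukey's comparison called 2 direct-pathway probes in FA, 1 indirect-pathway probe in each group, and 1 transcription factor probe in each. Between FA and PR limma and Tukey's comparison called 0 probes of these 3 lists, with medians of 0.00, -0.11, and -0.06, and 2, 1, and 0 probes passed at an unadjusted p under 0.05.

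In most of the 11 probes the FA brains differed from one another more than the CD or PR brains did. The median SD of the 11 probes was 0.10 in CD, 0.12 in PR, and 0.41 in FA. Over the 23753 probes well above background on all arrays it was 0.10, 0.09, and 0.08. In the FA group 8 of the 11 probes had an SD above the 95th percentile of those probes, and in the CD and PR groups 1 each. This comparison was added after the values were seen. Drd1a, Drd2, and Ppp1r1b were the genes below that percentile in the FA group.

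Relative to the FA mean, replicate 3 was higher by 1.07 for Slc6a3, 0.53 for Th, 0.50 for Ddc (A_55_P2110497), and 0.69 for Slc18a2 (A_55_P2143946). It was lower for Adora2a, with -0.38. In replicate 2 the deviations were -0.44 for Ddc, -0.69 for Slc18a2, and -0.30 for Slc6a3, but 0.07 for Th and 0.32 for Adora2a. The Slc6a3 deviations of replicates 1 and 4 were lower still, -0.38 and -0.39, since replicate 3 raised the FA mean. So the 2 brains stood on opposite sides for Ddc, Slc18a2, and Adora2a, while for Slc6a3 replicate 3 stood alone. Th was lowest in replicate 4 (-0.44).

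**Figure D3:**
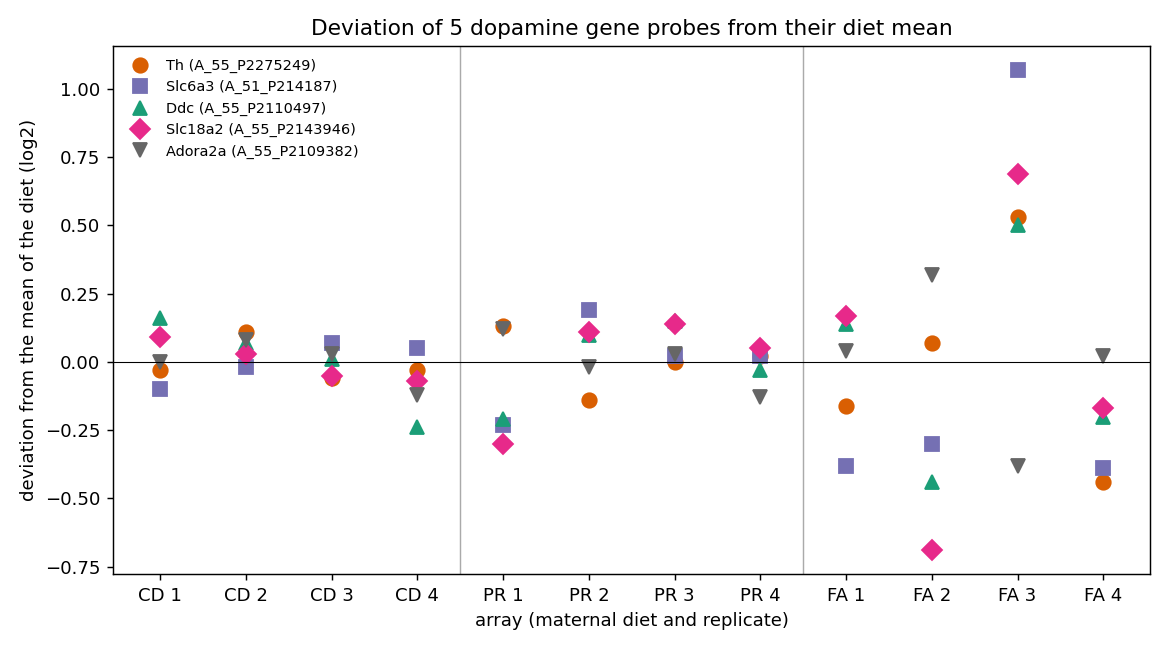
The vertical axis gives the deviation of a level from the mean of its diet on the log2 scale for 5 probes, and the horizontal axis the 12 arrays. The points of the CD and PR arrays lie between -0.30 and 0.19, and those of FA replicates 2 and 3 reach from -0.69 to 1.07.

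The summed markers of midbrain dopamine neurons, which include Th and Slc6a3 themselves, differed between FA replicates 2 and 3. For midbrain dopamine neurons, 15 genes with 18 probes were listed, Th and Slc6a3 among them, 13 of the genes were well above background on all 12 arrays, and En1 was not on any. The summed signal (log2), in which bright probes such as that of Aldh1a1 weigh most, was compared only between brains. It was 15.27 to 15.31 in the CD brains, 15.28 to 15.36 in the PR brains, and 15.29, 15.12, 15.59, and 15.22 in FA replicates 1 to 4. FA replicate 3 thus had the highest and FA replicate 2 the lowest sum. Since Th and Slc6a3 are part of the sum, part of this difference is theirs, and no sum without them was computed. Foxa1 and Chrna6 were picked after their values were seen. Foxa1, a factor of midbrain dopamine neurons, was at 7.45 in FA replicate 3 and 5.69 in FA replicate 2, and Chrna6 at 9.38 and 8.40. Other probes of the list ran the other way: both for Nr4a2 were lowest of the 12 brains in FA replicate 3 (11.93 and 10.46, against 12.27 and 10.58 in FA replicate 2), and A_55_P2146297 for Lmx1b was at 6.27 and 6.32. In the PR group 2 of the 18 probes were lower, Lmx1b (fell by 0.35, adjusted p = 0.0207) and Lmx1a (fell by 0.32, adjusted p = 0.0438), with a median of -0.19 over the list, and Tukey's comparison called 0. With scaling to the 75th percentile neither was called (-0.20 and -0.21, adjusted p = 0.164 and 0.143), nor with Tukey's comparison (0.0683 and 0.134). Lmx1a was also not called with normexp (-0.09, adjusted p = 0.206), with the replicate block (0.0670), or without 8 of the 12 arrays, each left out alone. The other probe for Lmx1b had a difference of 0.23 in PR (adjusted p = 0.180). With only the PR and CD arrays fitted, 5 of the 18 probes were lower and 1 was higher in PR. Without FA replicates 2 and 3 these counts were 4 and 1. The PR median of the list was -0.11 with normexp. Of all probes 16.6% were lower and 13.4% higher in PR, and 18.0% and 16.4% in FA. In the FA group 3 of the 18 probes were lower and 1 was higher, with a median of -0.15, and Tukey's comparison called 2. With normexp 2 were lower and 1 was higher in this group, with a median of -0.03. Nr4a2, a factor that turns on Th, fell by 0.47 there (adjusted p = 0.00668) in 4 of 4 brains, and by 0.26 with its other probe (adjusted p = 0.0199). One probe for Lmx1b fell by 0.40 (adjusted p = 0.00857) and the other rose by 0.36 (adjusted p = 0.0425). With normexp the first differed by -0.18 (adjusted p = 0.0114). Between FA and PR limma and Tukey's comparison called 0 of the 18 probes, 3 passed at an unadjusted p under 0.05, and the median was 0.14. The part of these neurons in the levels of Th, Ddc, Slc6a3, and Slc18a2 was not tested.

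Serotonergic neurons also express Ddc and Slc18a2. All 3 of their markers were above background, and their summed signal was 8.77 to 8.93 in the CD brains, 8.75 to 9.16 in the PR brains, and 9.34, 6.98, 9.27, and 8.66 in FA replicates 1 to 4. Tph2 was at 4.50 and Slc6a4 at 5.16 in FA replicate 2 (picked after their values were seen), the brain with the lowest Ddc and Slc18a2. Fev, the third marker, was at 6.09 there, within the CD range of 5.98 to 6.53. Limma and Tukey's comparison called 0 of the 3 probes in all 3 comparisons, 0 passed at an unadjusted p under 0.05, and the medians were 0.11, -0.38, and -0.69 for PR vs CD, FA vs CD, and FA vs PR. Without FA replicates 2 and 3 the last 2 medians were 0.29 and -0.03, and with normexp -0.05 and -0.25. The median for PR vs CD was 0.23 with scaling to the 75th percentile and 0.03 with normexp. The part of serotonergic neurons in Ddc and Slc18a2 was not tested. Th also serves noradrenergic neurons, for which the 4 genes listed gave a summed signal of 10.06 to 10.35 in the CD group, 10.11 to 10.38 in PR, and 10.18 to 10.29 in FA. The counts for these 4 probes were 0 in all 3 comparisons by limma, by Tukey's comparison, and at an unadjusted p under 0.05, with medians of 0.05, 0.05, and -0.03.

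The olfactory bulb holds dopamine neurons of its own, which express Th. Of its 4 listed markers 3 were on the array by name, with 4 probes, and all were above background. Their summed signal was 11.76 to 11.99 in the CD brains, and 11.75, 11.12, 11.39, and 11.50 in PR replicates 1 to 4. In FA replicates 1 to 4 it was 11.25, 11.72, 11.72, and 10.80. The PR brain and the FA brain with the lowest sum, PR replicate 2 and FA replicate 4, were also those with the lowest Th. Eomes was lower with both of its probes, in 4 of 4 brains each. A_55_P2184434 fell by 0.69 in PR (adjusted p = 0.00632) and 0.81 in FA (adjusted p = 0.00211), and A_55_P2150717 by 0.66 (adjusted p = 0.0187) and 1.02 (adjusted p = 0.00168). So 2 of the 4 probes, both for Eomes, were lower in each group, against 16.6% of all probes in PR and 18.0% in FA. Limma did not call Doc2g (-0.27 in PR, adjusted p = 0.398, and -0.26 in FA, adjusted p = 0.414). Nor did it call Tbx21 (-0.52 in both, adjusted p = 0.0683 in PR and 0.0605 in FA). Tukey's comparison called 1 of the 4 probes in PR and 2 in FA. The medians were -0.59 and -0.67, and -0.06 in FA relative to PR, where limma and Tukey's comparison called 0 probes and 0 passed at an unadjusted p under 0.05. With normexp the medians in PR and FA were -0.37 and -0.40, and A_55_P2184434 differed by -0.41 in PR. Without FA replicates 2 and 3, 3 of the 4 probes were lower in PR and 4 in FA. The median was then -0.95 in FA, and -0.39 in FA relative to PR. The share of olfactory bulb tissue in the Th levels was not tested.

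The pituitary list held 9 genes with 10 probes, 3 of them well above background on all 12 arrays. Its genes are named here after their values were seen. Gh and Prl were well above background on all 4 CD arrays, with levels of 7.73 to 8.37 and 7.84 to 7.98. They were not well above it on any PR array, and in the FA group only replicate 4 had them above, at 6.16 and 7.35. Limma called no other probe of the list, and the others did not share a direction. Relative to the CD group, the differences in PR and FA were -0.52 and -0.42 for Pomc, -0.07 and 0.13 for Lhb, and -0.15 and -0.14 for the Pou1f1 probe A_55_P2017066, all well above background on all 12 arrays. They were -0.53 and -0.75 for Tshb, -0.79 and -1.62 for Cga, 1.21 and 1.13 for Tbx19, 0.20 and 0.09 for Fshb, and 0.11 and 0.09 for the other Pou1f1 probe, which were above it on fewer arrays or none. So 2 of the 10 probes were lower in PR and 2 in FA, with as many calls by Tukey's comparison, and between FA and PR 0 were called by limma, by Tukey's comparison, and at an unadjusted p under 0.05, with list medians of -0.34, -0.28, and -0.01. Of the 44 probes on 8 further lists, for cerebellum, pineal gland, choroid plexus, blood, neurons in general, astrocytes, oligodendrocytes, and microglia, 8 were lower and 8 higher in PR, 9 lower and 6 higher in FA (10 and 12 calls by Tukey's comparison), against 16.6% lower and 13.4% higher of all probes in PR and 18.0% and 16.4% in FA, and 0 were called between FA and PR, where 9 passed at an unadjusted p under 0.05 and Tukey's comparison called 0. The part of these tissues and cells in the dopamine genes was not tested.

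For each of the 9 genes, the 5 genes most like it were taken by Pearson's r of the deviations from the diet means over the 12 arrays, among the 21060 probes that had a gene symbol and exceeded the background clearly on each array. These are descriptions over arrays that share slides, and the r without the 2 arrays farthest from the median of the gene is given beside them. Th was most like Pth2, A230065H16Rik, Sphk1, Klhl30, and Clca2, with r from 0.90 to 0.94, and from 0.50 to 0.89 without FA replicates 3 and 4. Ddc was most like Gstm6, Ret, Zcchc12, Slc18a2, and Tmie (0.94 to 0.95, and 0.87 to 0.89 without FA replicates 2 and 3). Slc18a2 was most like Gata3, 1100001E04Rik, Dlk1, Ddc, and Pcbd1 (0.95 to 0.96, and 0.68 to 0.87 without the same 2 arrays). Ddc and Slc18a2 thus named each other, with an r of 0.95 over 12 arrays and 0.87 over 10. The other pairs of their probes agreed less without FA replicates 2 and 3. For Ddc A_55_P2110497 with Slc18a2 A_55_P2000489, r was 0.70 over 12 arrays and 0.07 over 10. For Ddc A_52_P63905 it was 0.93 and 0.63 with Slc18a2 A_55_P2143946, and 0.94 and 0.81 with A_55_P2000489.

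Slc6a3 was most like Slitrk6, Mtus1, Gpr1, D9Wsu90e, and Pigv (0.96 to 0.97, and 0.78 to 0.90 without FA replicates 3 and 4). Drd1a was most like Trim59, Slc17a5, Ppp1r15b, Zfp36l1, and Ptgs2 (0.85 to 0.87, and 0.77 to 0.84 without CD replicate 2 and PR replicate 1). Drd2 was most like Angel2, Dab1, Ppp3cb, Zfp324, and Nsf (0.88 to 0.93, and 0.76 to 0.91 without CD replicate 1 and FA replicate 2). The receptor genes did not name each other or any of the other 9 genes.

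Drd4 was most like Rplp1, Gm13611, Gm7079, 1600014K23Rik, and Ttc35 (0.89 to 0.93, and 0.73 to 0.87 without CD replicate 4 and FA replicate 4). Ppp1r1b was most like Mtmr7, Dtnb, Phyhip, Fam100a, and Osbp2 (0.91 to 0.94, and 0.78 to 0.88 without CD replicate 2 and PR replicate 2). Adora2a was most like Mxd4, Cited4, Tshz3, Gkn1, and Plxna4 (0.92 to 0.94, and 0.59 to 0.87 without FA replicates 2 and 3). For each of the 9 genes the range of r was lower without the 2 arrays.

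The promoters of the 9 genes were looked up in the RefSeq table of build GRCm38.p6, which reaches from 250 bases before to 50 bases after the start of a gene. It held 9 entries for 7 of the 9 genes, and Ppp1r1b and Adora2a had no entry. After the promoters had been read, 5 motifs were searched on both strands: TGACGTCA, the letters of the cyclic AMP response element; AAAGGTCA, the letters bound by Nr4a2; GGGCGG, the core letters of a GC box; TATAAA, those of a TATA box; and CCAAT, those of a CCAAT box. TGACGTCA was in 2 of the 9 entries, Th and Slc18a2, against 1.79% of 32851 promoters of the same length. AAAGGTCA was in 1, for Ddc, against 1.51%, and there it shares 3 bases with a match of TATAAA, the only 1 in the 9 entries, against 13.6% of all promoters. GGGCGG was in 7 of the 9 entries, against 35.7%, and CCAAT in 2, 1 for Ddc and 1 for Drd4, against 37.4%. Th, Slc18a2, and Ddc were among the genes that varied widely in the FA brains, and their entries with the longer motifs are shown from 250 bases before to 20 bases after the start, 5′ to 3′ on the strand of the gene, with the match in capitals. They are chr7:142899976-142900245 (minus strand) for Th, chr19:59260628-59260897 (plus strand) for Slc18a2, and chr11:11898125-11898394 (minus strand) for Ddc.
Th: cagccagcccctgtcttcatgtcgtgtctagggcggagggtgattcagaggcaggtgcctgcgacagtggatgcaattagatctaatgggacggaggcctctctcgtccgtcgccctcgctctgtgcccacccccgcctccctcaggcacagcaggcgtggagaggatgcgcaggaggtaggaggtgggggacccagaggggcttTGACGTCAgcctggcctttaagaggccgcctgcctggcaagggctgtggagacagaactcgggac
Slc18a2: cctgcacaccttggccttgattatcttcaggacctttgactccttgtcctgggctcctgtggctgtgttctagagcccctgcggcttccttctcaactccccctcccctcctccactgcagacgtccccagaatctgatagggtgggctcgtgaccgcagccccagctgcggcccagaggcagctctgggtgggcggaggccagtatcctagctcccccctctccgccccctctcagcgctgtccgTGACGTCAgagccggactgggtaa
Ddc: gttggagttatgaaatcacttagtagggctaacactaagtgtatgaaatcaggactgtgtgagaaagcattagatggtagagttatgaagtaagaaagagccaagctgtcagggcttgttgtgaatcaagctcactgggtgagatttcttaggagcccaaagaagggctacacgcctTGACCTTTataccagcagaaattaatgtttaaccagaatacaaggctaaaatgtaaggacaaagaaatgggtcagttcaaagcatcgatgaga

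In Th the match runs from 45 to 38 bases before the start, and in Slc18a2 it spans the start, from 4 bases before to 4 bases after. In Ddc the match lies on the other strand, from 73 to 66 bases before the start, and the other Ddc entry held neither of the longer motifs. The entries of Drd4 and Slc6a3, which also varied widely in the FA brains (SD 0.79 and 0.71), held neither of them. A match describes the letters only, and 5 of the 7 genes had no match of TGACGTCA in this window.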

How the data were processed

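Gene expression in 12 whole brains was measured with 1-color Agilent arrays, labeled with Cy3. The authors quantified spot intensity with Feature Extraction 11.0.1.1 (probe positions in mm9) and deposited a table of qspline-normalized intensity per probe on the linear scale. The log2 of these deposited values was analysed. All 12 columns of the table were used, and it held 0 other columns. Control spots were left out, leaving 43020 spots for 39429 probes, and repeated spots were averaged. A probe counted as well above background where at least 50% of its spots carried the software's flag.

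Mice were grouped by their diet labels. The number of arrays limits the precision. A single limma fit (version 3.58.1, R 4.3.3) held the 3 groups. Moderated tests were two-sided, and p-values were adjusted by Benjamini-Hochberg across the probes of each comparison. The script was tested on simulated data. Named genes were the 9 genes, Drd3 and Drd5, up to 4 called genes with the largest change per list and comparison among probes bright on all arrays, and the 5 genes most like each. Some items are not reported here. Where a gene had several probes, the one with the largest change stood for it in a list, and the brighter probe of Ddc and of Slc18a2 was used for likeness. That choice, the limit to probes with a gene symbol, and the motifs were made after values or sequences had been seen. The genes and lists were chosen with earlier results of these data known.

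Gene names are those of the array design. All 11 probes were matched by accession to current symbols, and 1 gene had a changed symbol. Values were also computed with scaling to the 75th percentile, with and without outlier spots, quantile normalization, normexp with an offset of 50, leaving out dim probes, the replicate number as a block, limma's trend and robust options, a fit of the 2 groups alone, Tukey's comparison as named in the methods, and leaving out each array. Leaving out FA replicates 2 and 3 together was chosen after seeing the data, as was running the lists and their named genes under these alternatives. Promoters were searched and figures drawn with Python 3.11.15 and matplotlib 3.10.9. The methylation arrays were not analysed here.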

Additional observations from a re-analysis of the deposited data

Results flagged for a closer look

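Dixon's ratio, the gap between an extreme mouse and its nearest neighbor divided by the range of the 4 mice of its diet, was computed for 13 probes in 3 diets. Of these 39 groups, 4 held a mouse far from the other 3, and chance gives about 1 in 20 groups. For Slc6a3, FA replicate 3 was at 12.42 and the nearest FA brain at 11.05 (ratio 0.935). For Drd4, CD replicate 4 was at 8.12 with the nearest CD brain at 7.20 (ratio 0.851), and FA replicate 4 was at 5.61 with the nearest FA brain at 7.09 (ratio 0.875). For Ddc, PR replicate 1 was at 7.09 with the probe A_52_P63905, and the nearest PR brain was at 7.32 (ratio 0.877). The cause was not tested for any of them.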

How the results depend on the processing

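Of the log2 fold changes of the 11 probes under the alternatives, 668 kept their direction and their side of the limit, 14 passed it only under the alternative, 15 passed it no longer, and 29 changed sign. The cause was not tested unless the arrays left out make it.

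The count of probes called higher between PR and CD, 1 as reported, was 0 with scaling to the 75th percentile, with or without outlier spots, 0 with Tukey's comparison, 2 with only these 2 groups fitted, and 2 without FA replicates 2 and 3. In the last 2 the probes are those of Ddc and Adora2a, and Ppp1r1b is not among them (adjusted p = 0.0652 and 0.0514). The count of probes called lower, 0 as reported, was 1 with only these 2 groups fitted, that of Th. Between FA and CD the count of higher probes, 1 as reported, was 0 with the 75th percentile, with or without outlier spots, and 2 with dim probes left out, Drd2 and Ppp1r1b. Without FA replicates 2 and 3 it was 1, now Ddc in place of Ppp1r1b, and the count of lower probes, 0 as reported, was 1, that of Th. Leaving out 1 array gave 0 to 2 higher and 0 to 0 lower probes between PR and CD, 1 to 2 and 0 to 1 between FA and CD, and 0 to 0 between FA and PR.

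Of all probes, 242 were called between FA and PR. The count was 136 with the 75th percentile, 138 with outlier spots also left out, 554 with dim probes left out, 436 with trend and robust estimation, 101 with only these 2 groups, 8 with Tukey's comparison, and 35 without FA replicates 2 and 3. Leaving out 1 array gave 34 to 259 there, 9378 to 12266 between PR and CD, and 11465 to 13848 between FA and CD.

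With the replicate number as a block, 11 probes were called between FA and PR, 10986 between PR and CD, and 12710 between FA and CD. The block gave 0 higher dopamine probes between PR and CD, where Ppp1r1b had an adjusted p of 0.0754 in limma, and changed no other call among the 11 probes. What the number stands for was not tested. Deviations of the 12 same-numbered pairs correlated between -0.06 and 0.20, 3 above 0.1, and those of differently numbered pairs between -0.22 and 0.18, and 5 of 12 arrays were closest to 1 with their own number. The net signal of the negative controls was lowest on replicate 1 and highest on replicate 4 of each slide (28.1 and 34.8 in CD, 42.7 and 51.2 in PR, 39.3 and 47.6 in FA).

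These differences changed sign. Between FA and PR, Ddc (A_52_P63905) was -0.05 with the 75th percentile, with or without outlier spots, and -0.01 with quantile normalization, and Ppp1r1b was -0.01 with normexp. Between FA and CD, Drd1a was 0.03 with normexp and Slc6a3 was -0.09 without FA replicates 2 and 3. Leaving out 1 array gave ranges across 0 between FA and CD for Ddc A_55_P2110497 (-0.21 to 0.10), Drd1a (-0.07 to 0.00), Slc18a2 A_55_P2000489 (-0.34 to 0.20) and A_55_P2143946 (-0.30 to 0.16), and Slc6a3 (-0.06 to 0.43). Between FA and PR it did so for Th (-0.19 to 0.13), Ddc A_52_P63905 (-0.22 to 0.25) and A_55_P2110497 (-0.10 to 0.21), Slc18a2 A_55_P2000489 (-0.19 to 0.35) and A_55_P2143946 (-0.11 to 0.35), Drd4 (-0.28 to 0.29), Ppp1r1b (-0.01 to 0.05), and Adora2a (-0.23 to 0.00).

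The other ranges kept their sign. Between PR and CD they were -0.29 to -0.20 for Th, 0.42 to 0.54 for Ddc A_52_P63905 and -0.19 to -0.04 for A_55_P2110497, -0.20 to -0.06 for Slc6a3, -0.26 to -0.02 for Slc18a2 A_55_P2000489 and -0.24 to -0.09 for A_55_P2143946, 0.04 to 0.11 for Drd1a, 0.04 to 0.17 for Drd2, -0.59 to -0.23 for Drd4, 0.16 to 0.22 for Ppp1r1b, and 0.26 to 0.34 for Adora2a. For FA and CD they were -0.44 to -0.12 for Th, 0.26 to 0.73 for Ddc A_52_P63905, 0.17 to 0.30 for Drd2, -0.76 to -0.20 for Drd4, 0.19 to 0.24 for Ppp1r1b, and 0.07 to 0.30 for Adora2a, and between FA and PR 0.08 to 0.57 for Slc6a3, -0.13 to -0.07 for Drd1a, and 0.06 to 0.16 for Drd2. With the 75th percentile Slc18a2 A_55_P2000489 differed by -0.05 between PR and CD.

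Signal over background limits dim probes on these arrays, and fewer spots stood well above it on the CD arrays than on the others. With 4 mice per diet on 1 slide each, the differences in slide and diet cannot be told apart, and each probe reads 1 stretch of its gene.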
